A study of Mus musculus with 48 samples.

Results

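The comparison described here set 5 Fmn2-/- mice of 8 months of age against 3 Fmn2+/+ mice of the same age, 8 of the 48 samples of the series. The members were taken by genotype and age from the sample labels, and this rule used no measured value. Earlier results of these data were known when the members were chosen. The tissue was the dentate gyrus of the hippocampus, dissected whole, and the labelled strain of both groups was C57BL/6J. The study describes the animals as male, with control littermates of matched age. The Fmn2-/- mice lacked Fmn2 constitutively, not in the dentate gyrus alone, and no further allele and no treatment is labelled for either group. RNA-sequencing counted the reads that fell on each gene, and the comparison asked which genes of the dentate gyrus differed in abundance between the genotypes at this older age.

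Formin 2, the product of Fmn2, is an actin nucleator: it starts new unbranched actin filaments, in many cells together with spire proteins and profilin. It is a neuronal protein in the brain, and actin filaments shape the dendritic spines on which excitatory synapses sit. The dentate gyrus is the entry station of the hippocampus. Its main cells are granule cells, whose axons, the mossy fibres, contact hilar mossy cells and CA3 pyramidal cells. Bulk RNA of this tissue mixes granule cells with interneurons and glia, so fewer cells of a type and less RNA per cell cannot be told apart in any result below.

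The libraries were uneven. The 3 Fmn2+/+ libraries held 43921030, 6818809 and 8381078 counted reads and the 5 Fmn2-/- libraries 9175551 to 11675280. Fmn2+/+ replicate 1 was sequenced on lane 6 and the other 7 mice on lane 7. The tested genes were split into 4 equal groups by GC content, and reads on the highest group made up 22.95%, 19.89% and 22.63% of the counts in the Fmn2+/+ mice and 19.24% to 20.63% in the Fmn2-/- mice, so Fmn2+/+ replicate 2 lay within the range of the other genotype. Fmn2-/- replicates 2 and 3 differed by less than any other pair within a genotype, but by more than sampling noise alone would give, with a chi-square per degree of freedom of 1.62 against 3.50 to 6.40 for the other Fmn2-/- pairs. The labels give them separate numbers and they were counted as 2 mice, but whether they came from separate animals is uncertain, and if they did not, the knockout group holds 4 animals and its SDs and p-values may be too small. Levels are given as CPM, read counts scaled to library size, with the library sizes normalized by the trimmed mean of M values (TMM). The granule cell genes Prox1 (204 to 272 CPM) and Calb1 (280 to 377 CPM) were present in all 8 mice.

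Fmn2 (ENSMUSG00000028354, mm10 chromosome 1, 174501825 to 174822729, protein-coding) stood at 86.9, 106.9 and 76.9 CPM in the Fmn2+/+ mice and at 23.8, 25.5, 22.01, 21.6 and 28.2 CPM in the Fmn2-/- mice. All Fmn2-/- mice lay far below all Fmn2+/+ mice, and reads on the gene were still counted in each knockout. Fmn2 fell by 1.89 on the log2 scale (SE 0.11, edgeR adjusted p = 3.91e-06). Its neighbour Catspere1 (177808550 to 177962233, annotated as an unprocessed pseudogene) was counted with 1, 1 and 0 reads in the Fmn2+/+ mice and with 64, 73, 84, 87 and 73 reads in the Fmn2-/- mice. Relative to the reads of each group this was 221 times the Fmn2+/+ level, with an exact 95% interval for counting error of 60.8 to 1830. Catspere2 (177983423 to 178172704), a relative in the sperm calcium channel family that can share reads with Catspere1, stood at 2.46, 0.756 and 1.95 CPM in the Fmn2+/+ mice and at 10.3 to 15.3 CPM in the Fmn2-/- mice. The groups did not overlap for either gene, and Catspere2 rose by 2.66 on the log2 scale (SE 0.24, edgeR adjusted p = 0.000335).

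Within 10 Mb of Fmn2, 151 genes were tested and 4 were called, 2.65% against 1.13% of all genes tested. The 4 include Fmn2, the disrupted gene itself, and also Catspere1 and Catspere2, which can share reads. A call required an adjusted p under 0.05 together with a log2 fold change of 0.25 or more in either direction. The fourth gene was the processed pseudogene Gm20305 (180854282 to 180854458), which fell from 2.65 ± 0.240 CPM (SD, n = 3) to 1.11 ± 0.353 CPM (SD, n = 5; edgeR adjusted p = 0.0434). It lies inside the interval of Sde2, and the counting was not stated to use strand. The 151 genes had a median log2 fold change of 0.009. Fmn2, Catspere1 and Catspere2 differed in the same direction at 3 months, by -2.06, 8.30 and 2.12 on the log2 scale, and the genotype effect of none of these 3 genes passed the test of a difference between the ages (edgeR adjusted p from 0.289 to 0.753).

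**Figure D1:**
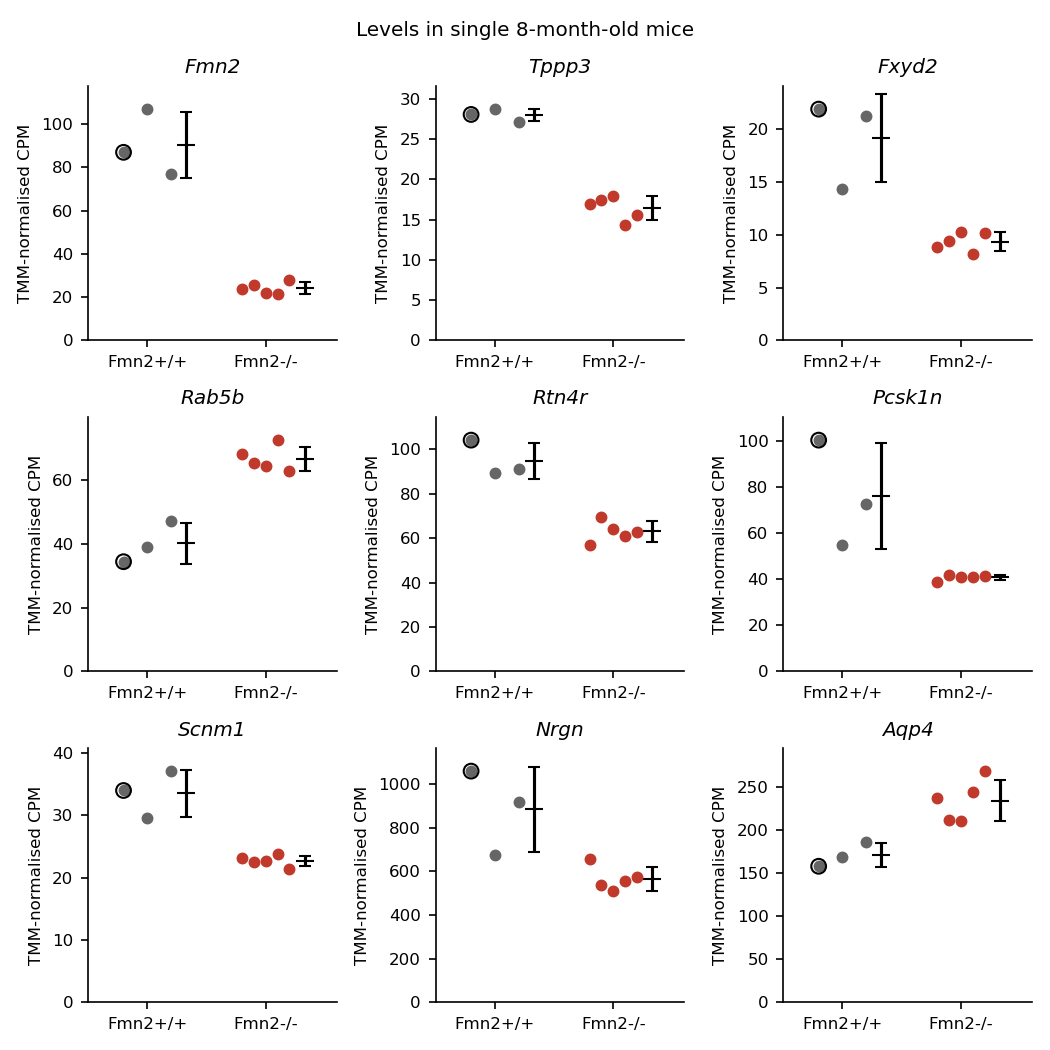
TMM-normalised CPM of 9 genes in each 8-month-old mouse, with grey points for Fmn2+/+ mice, red points for Fmn2-/- mice and bars for the mean and SD of each group. The ringed point is Fmn2+/+ replicate 1, sequenced on lane 6. In all 9 panels no Fmn2-/- point lies within the range of the Fmn2+/+ points.

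Over the whole transcriptome 14665 genes were tested and 166 were called (1.13%): 129 fell in Fmn2-/- mice (0.88%) and 37 rose (0.252%). Of the 129 genes that fell, 124 are annotated as protein-coding, as are 33 of the 37 that rose. Called or not, 7158 of the genes tested had a lower and 7506 a higher fitted value in Fmn2-/- mice. The members lower and higher in the gene lists below are to be read against these numbers. Levels of the 2 genotypes did not overlap in 1713 genes (11.7%), of which 964 were lower (6.57%) and 749 higher (5.11%) in Fmn2-/- mice. An unadjusted p under 0.05 was reached by 3419 genes (23.3%), the share against which the unadjusted counts of the gene lists below are to be read. The genes that fell had a median log2 fold change of -0.51 and those that rose one of 0.54, so most calls were changes by less than 2-fold. DESeq2, the tool the study used, called 733 genes (6.06% of the 12104 it assigned an adjusted p), 469 lower (3.87%) and 264 higher (2.18%). The DESeq2 counts of the gene lists below are to be read against these shares.

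These calls rested on few animals. Without Fmn2+/+ replicate 1, which leaves the 7 mice of lane 7, edgeR called 4 genes (0.0268%): Fmn2, Catspere1, Catspere2 and Rny3. The first 3 were also the only genes called in all 8 fits without 1 mouse (0.0205%). Among the 166 genes, 74 were called in 1 of these 8 fits and 78 in 2. The tubulin-binding gene Tppp3 was called in 7 of them, and Fxyd2, Rab5b and Rtn4r in 6 each. Without Fmn2+/+ replicate 2 the count was 3087 genes, and without any single Fmn2-/- mouse it was between 4 and 10. Within lane 7 the median log2 fold change of the 129 genes was -0.42 and that of the 37 genes 0.50, so the values moved less than the number of calls. The direction of these medians follows from the choice of the genes. Every gene named below as called, other than Fmn2 and both Catspere genes, had an adjusted p above 0.05 in the lane 7 mice alone.

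**Figure D2:**
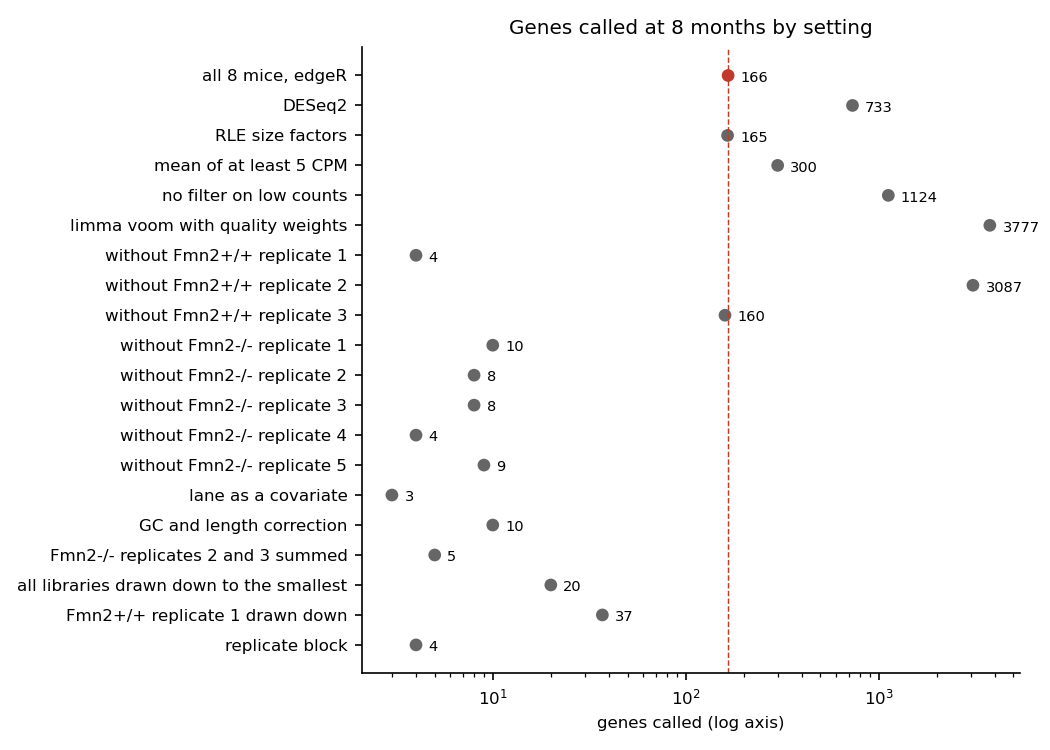
Number of genes called between Fmn2-/- and Fmn2+/+ mice of 8 months, on a log axis, under 20 settings of the test. The count with all 8 mice is 166, marked by the dashed line, and the other settings give 3 to 3777.

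The calls were also unevenly spread over genes of different base composition. In the group of genes highest in GC content (54.64% and above) the median log2 fold change was -0.16, with 92 genes that fell and 2 that rose. In the lowest group it was 0.12, with 4 that fell and 16 that rose. By exonic length, also in 4 groups, the shortest had a median of -0.12 with 75 falls, and the longest a median of 0.11 with 2 falls. The 129 genes that fell had a median GC content of 58.24% and a median exonic length of 2401 bases, against 49.99% and 4444 bases over all genes tested. At 3 months the order of the groups was the opposite, from -0.06 in the lowest to 0.08 in the highest group of GC content.

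After a correction for GC content and length in each mouse, edgeR called 10 genes (0.0682%), 9 of them among the 166. They were Fmn2, Catspere1, Catspere2, Fxyd2, Rab5b, Scnm1, Pcsk1n, Rps26 and Myl6. The tenth was Sccpdh, 4.85 Mb from Fmn2, at 71.2 ± 5.44 CPM (SD, n = 3) in Fmn2+/+ and 58.98 ± 2.45 CPM (SD, n = 5) in Fmn2-/- mice, named here after its value was seen. The median log2 fold change of the 129 genes was -0.34 after the correction and that of the 37 genes 0.43. Of the 58 called genes named in this comparison, 20 had a value more than 1.5 times smaller after the correction, and none changed sign. They were Rtn4r, Rplp1, H1fx, Lrrc4b, Tpgs1, Prrt1, Jund, Ndufa13, Ap2s1, Rpl38, Caly, Rps4l, Nrgn, Syt5, C1ql2, Fxyd7, Map7d1, Rtn4rl2, Rplp0 and Ndnf, and none of them was called with it.

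**Figure D3:**
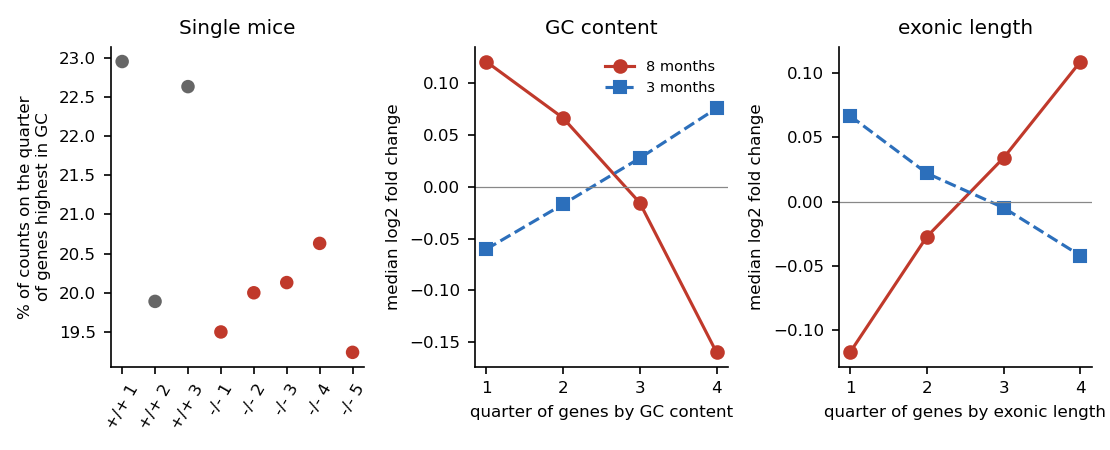
Left, the percentage of counted reads on the group of genes highest in GC content in each mouse (grey Fmn2+/+, red Fmn2-/-; the axis does not start at 0). Middle and right, the median log2 fold change of Fmn2-/- over Fmn2+/+ in 4 groups of genes from low to high GC content and from short to long exonic length, at 8 months (circles) and 3 months (squares); the lines of the 2 ages cross.

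Among single genes outside chromosome 1, Tppp3 had the smallest adjusted p. It encodes a tubulin polymerization-promoting protein that bundles microtubules. Tppp3 stood at 28.1, 28.7 and 27.2 CPM in the Fmn2+/+ mice and at 16.9, 17.4, 17.9, 14.3 and 15.5 CPM in the Fmn2-/- mice. The Fmn2+/+ mice were close to each other and well above all knockouts, and the gene fell by 0.77 on the log2 scale (SE 0.092, edgeR adjusted p = 0.00666). Of 31 tested tubulin and microtubule genes 3 were called, all lower: Tppp3, the microtubule destabilizer Stmn4 (fell by 0.49) and the microtubule-binding Map7d1 (fell by 0.36, with a value of -0.12 after the correction for GC content and length). The list's median log2 fold change was -0.07, against 0.006 over all genes, and 0.01 after the correction. Tpgs1, a subunit of the enzyme that adds glutamate chains to tubulin, is outside the list and fell from 20.8 ± 2.96 CPM (SD, n = 3) to 12.5 ± 1.34 CPM (SD, n = 5; edgeR adjusted p = 0.0295).

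The actin machinery held few calls. Of 43 tested actin nucleators and partners only Fmn2 and Myl6 were called, and 22 were lower and 21 higher, with a median log2 fold change of -0.0015. Myl6 encodes the essential light chain of non-muscle myosin. It stood at 114, 99.5 and 127 CPM in the Fmn2+/+ mice and at 87.5, 76.6, 71.6, 73.2 and 79.6 CPM in the Fmn2-/- mice, without overlap. Myl6 fell by 0.55 on the log2 scale (SE 0.089, edgeR adjusted p = 0.0300) and by 0.48 after the correction for GC content and length (edgeR adjusted p = 0.0465).

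Genes of ion pumps and vesicle trafficking were called in both directions. Fxyd2, the gamma subunit that regulates the sodium pump, stood at 21.9, 14.4 and 21.2 CPM in the Fmn2+/+ mice and at 8.82, 9.37, 10.3, 8.16 and 10.1 CPM in the Fmn2-/- mice. The lowest Fmn2+/+ mouse was replicate 2, still above the highest knockout. Fxyd2 fell by 1.06 on the log2 scale (SE 0.14, edgeR adjusted p = 0.0122). Fxyd7, a brain FXYD protein, fell by 0.42 on the log2 scale (-0.13 after the correction), and the other 9 of 11 tested pump genes did not pass the test. Atp6v0c, the proton-conducting ring subunit of the vacuolar ATPase, fell from 10.5 ± 2.12 CPM (SD, n = 3) to 5.90 ± 0.819 CPM (SD, n = 5; edgeR adjusted p = 0.0393), the only call among 17 subunits.

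Of the genes that rose outside chromosome 1, Rab5b had the smallest adjusted p. It encodes a GTPase of early endosomes. Its levels were 34.4, 38.9 and 47.1 CPM in the Fmn2+/+ mice and 68.1, 65.5, 64.3, 72.5 and 62.8 CPM in the Fmn2-/- mice. The knockouts were close together and all above the Fmn2+/+ mice, among which replicate 1 was lowest. Rab5b rose by 0.75 on the log2 scale (SE 0.099, edgeR adjusted p = 0.0122), and it was the only 1 of 40 tested RAB GTPases to be called. Of the list, 27 were higher and 13 lower, with a median log2 fold change of 0.08, and of 0.04 after the correction.

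Of the Nogo receptor family, which binds myelin-derived inhibitors of axon growth, 2 genes were called. Rtn4r, the Nogo-66 receptor, stood at 104.2, 89.4 and 91.3 CPM in the Fmn2+/+ mice and at 57.1, 69.8, 64.3, 61.1 and 62.9 CPM in the Fmn2-/- mice. The highest knockout, replicate 2, was well below the lowest Fmn2+/+ mouse. Rtn4r fell by 0.60 on the log2 scale (SE 0.080, edgeR adjusted p = 0.0122), and by 0.28 after the correction for GC content and length, where it was no longer called (edgeR adjusted p = 0.108). Its homologue Rtn4rl2 fell by 0.51 on the log2 scale. After the correction its value was -0.08, and its GC content of 67.91% was among the higher ones. Of the 27 tested genes of this list 15 were lower and 12 higher.

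At synapses, 4 of 46 tested genes of the postsynaptic density and calcium signalling and 2 of 48 genes of synaptic vesicles and release were called. All were lower, where 0.88% of all genes tested were called lower. Of the 46 genes 26 were lower and 20 higher (median log2 fold change -0.07, corrected 0.007). Of the 48 genes 18 were lower and 30 higher (median 0.06, corrected 0.03). Every called gene of both lists had a value more than 1.5 times smaller after the correction. Nrgn encodes neurogranin, a calmodulin-binding protein of dendritic spines. It stood at 1060, 675 and 918 CPM in the Fmn2+/+ mice and at 658, 537, 512, 557 and 573 CPM in the Fmn2-/- mice. Fmn2+/+ replicate 2 was close to the highest knockout. Nrgn fell by 0.64 on the log2 scale (SE 0.12, edgeR adjusted p = 0.0434). Prrt1 (fell by 0.67), a protein that associates with AMPA receptors, Lrrc4b (fell by 0.58, with -0.28 after the correction), a synaptic adhesion molecule, and Caly (fell by 0.60), an endocytic protein that interacts with dopamine receptors, were the other 3. On the presynaptic side, the clathrin adaptor subunit Ap2s1 and the calcium sensor Syt5 fell by 0.47 and 0.46. Of 33 glutamate receptor genes only Grm2, a presynaptic metabotropic receptor, was called, from 88.3 ± 15.8 CPM (SD, n = 3) to 60.2 ± 3.25 CPM (SD, n = 5; edgeR adjusted p = 0.0378). None of 14 GABA receptor genes was called by edgeR (1 by DESeq2, and 3 at an unadjusted edgeR p under 0.05), and 11 of the 14 were higher, with a median log2 fold change of 0.14. These messages are low in GC content (median 43.58%), and their median log2 fold change was 0.02 after the correction.

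Neuropeptide genes were mostly lower. Of 31 tested granins, neuropeptides and processing enzymes 23 were lower and 8 higher, with a median log2 fold change of -0.24 (-0.14 after the correction for GC content and length), but edgeR called 1 and DESeq2 called 8. The called gene was Pcsk1n, which encodes proSAAS, an inhibitor of the prohormone convertase PC1. Pcsk1n stood at 100.4, 54.7 and 72.7 CPM in the Fmn2+/+ mice and at 38.9, 41.9, 41.1, 41.1 and 41.2 CPM in the Fmn2-/- mice. The knockouts were almost level, whereas the Fmn2+/+ mice ranged widely and all lay above them. Pcsk1n fell by 0.92 on the log2 scale (SE 0.14, edgeR adjusted p = 0.0288). Without Fmn2+/+ replicate 1 the value was -0.65.

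**Figure D4:**
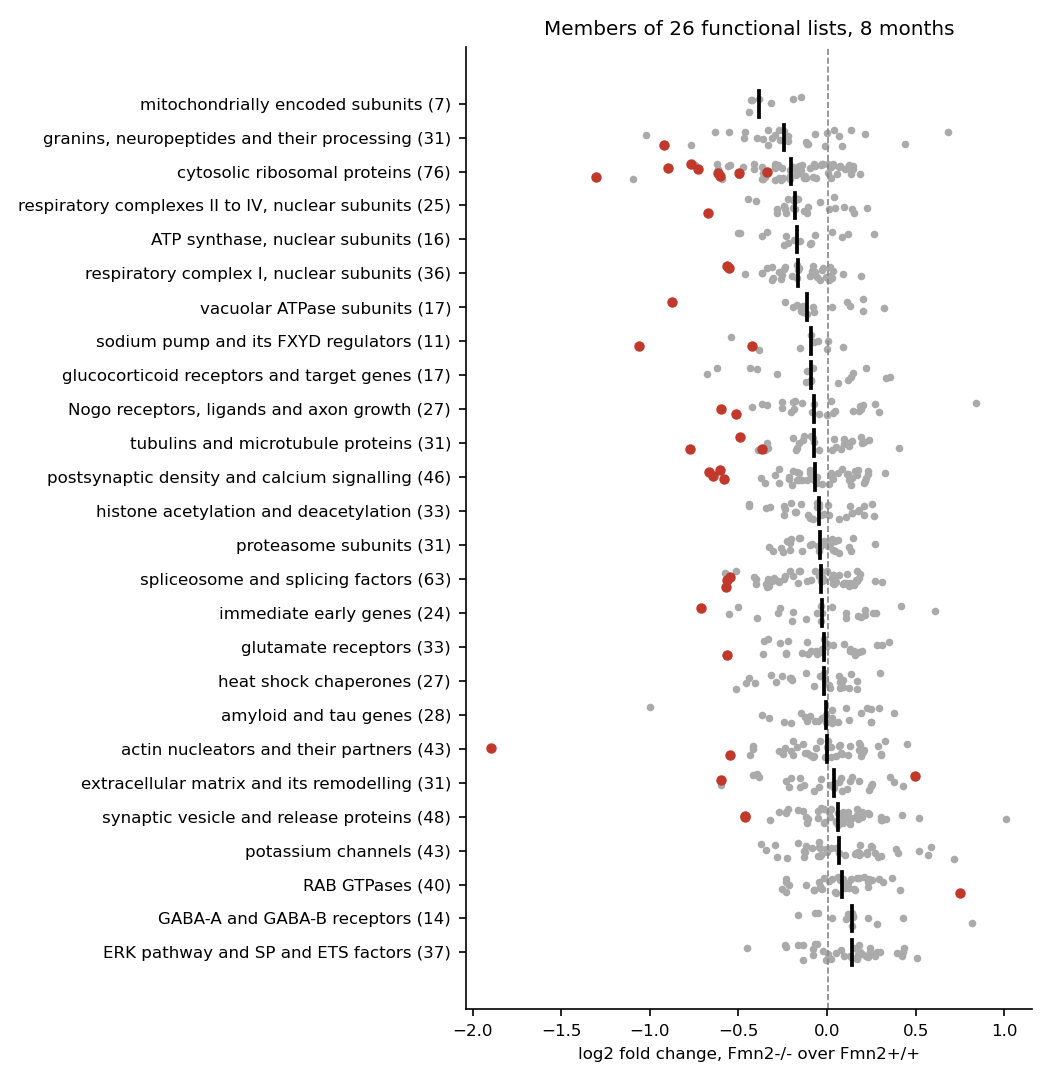
Log2 fold change of Fmn2-/- over Fmn2+/+ at 8 months for the tested members of 26 functional gene lists, ordered by their median (black bars), with the number of tested genes in brackets. Red points passed the test, grey points did not, and the dashed line is the median of all genes. The lists at the top have medians from -0.38 to -0.16 with few called members, and the bottom list a median of 0.14 with none.

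The respiratory chain was lower in most of its genes, with few that passed the test. Of 36 nuclear-encoded subunits of complex I, the NADH dehydrogenase, 28 were lower (median log2 fold change -0.16, or -0.08 after the correction for GC content and length), and Ndufa13 and Ndufb7 were called. Ndufb7 stood at 92.2, 64.6 and 77.3 CPM in the Fmn2+/+ mice and at 52.5, 55.7, 49.9, 50.5 and 57.6 CPM in the Fmn2-/- mice. Fmn2+/+ replicate 2 was again the lowest of its group, and the genotypes did not overlap. Ndufb7 fell by 0.57 on the log2 scale (SE 0.10, edgeR adjusted p = 0.0378), and Ndufa13 fell by 0.55 (-0.25 after the correction). Of 25 subunits of complexes II to IV 18 were lower (median -0.18, corrected -0.10), with Uqcrq, a small subunit of complex III, called from 96.2 ± 19.5 CPM (SD, n = 3) to 61.1 ± 4.73 CPM (SD, n = 5; edgeR adjusted p = 0.0300). Of 16 ATP synthase subunits 12 were lower (median -0.17, corrected -0.11), and edgeR called 0 (8 at an unadjusted p under 0.05) and DESeq2 2.

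The subunits encoded by the mitochondrial genome were also lower. All 7 that passed the filter on low counts had lower fitted values, with a median log2 fold change of -0.38, but edgeR called none (5 at an unadjusted p under 0.05) and DESeq2 4. mt-Nd1 stood at 11980, 9539 and 11150 CPM in the Fmn2+/+ mice and at 8854, 8108, 7485, 6542 and 9125 CPM in the Fmn2-/- mice, without overlap (edgeR adjusted p = 0.0608). For mt-Co1, at 14260 ± 1145 CPM (SD, n = 3) and 12890 ± 1198 CPM (SD, n = 5), the adjusted p was 0.326. These messages are low in GC content, with a median of 37.12%, unlike the nuclear genes that fell. Their median log2 fold change was -0.42 after the correction for GC content and length. At 3 months it was -0.29 without the correction, so this list was lower at that age too. The nuclear lists of complex I, complexes II to IV and ATP synthase had 3-month medians of 0.18, 0.16 and 0.09. Mitochondrial reads were 6.999% to 8.439% of the counts in Fmn2+/+ and 5.366% to 7.137% in Fmn2-/- mice.

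Ribosomal protein genes held the largest number of calls of any list, 8 of 76, all lower, where 0.88% of all genes tested were called lower. Their counts are uncertain where processed copies elsewhere in the genome take part of the reads. Rplp1, a protein of the ribosomal stalk, stood at 316, 230 and 303 CPM in the Fmn2+/+ mice and at 169, 170, 159, 147 and 187 CPM in the Fmn2-/- mice. All Fmn2+/+ mice were above all knockouts, and Rplp1 fell by 0.77 on the log2 scale (SE 0.11, edgeR adjusted p = 0.0157). Rps26 stood at 76.4, 51.7 and 70.4 CPM in the Fmn2+/+ mice and at 29.8 to 45.3 CPM in the Fmn2-/- mice, and fell by 0.90 on the log2 scale (SE 0.14, edgeR adjusted p = 0.0288). Rpl41, Rpl38, Rps25, Rps24, Rplp0 and Rps16 were the others, falling by 0.34 (Rplp0) to 1.31 (Rps16) on the log2 scale. Without Fmn2+/+ replicate 1, at 11.16 CPM against 4.84 and 5.39 CPM in the other Fmn2+/+ mice, the value of Rps16 was -0.72, and that of Rplp0 was -0.14 after the correction. Of the 76 genes 59 were lower and 17 higher, with a median of -0.20, and of -0.14 after the correction for GC content and length. Rps4l, outside the list and annotated as a transcribed processed pseudogene, fell by 0.88.

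Splicing genes had a median log2 fold change near 0. Of 63 tested members 36 were lower and 27 higher (median -0.03, corrected -0.09). Of the 63, 3 were called, all lower, where 0.88% of all genes tested were called lower. DESeq2 called 6, all lower, and 24 had an unadjusted edgeR p under 0.05. Levels did not overlap in 15 members, 12 of them lower. Over all genes tested these shares were 11.7% and 6.57%. Scnm1, a zinc finger splicing factor, stood at 33.9, 29.5 and 37.0 CPM in the Fmn2+/+ mice and at 23.1, 22.4, 22.6, 23.7 and 21.4 CPM in the Fmn2-/- mice. The knockouts again differed little from each other, and Scnm1 fell by 0.57 on the log2 scale (SE 0.086, edgeR adjusted p = 0.0288). Sf3b5, of the U2 particle, and Snrpa, of the U1 particle, fell by 0.55 and 0.56. The linker histone H1fx fell from 10.2 ± 2.56 CPM (SD, n = 3) to 5.08 ± 0.460 CPM (SD, n = 5; edgeR adjusted p = 0.0288), with a GC content of 71.32%, the highest of all genes tested.

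The kinase pathway upstream of ETS factors, and the SP and ETS factors themselves, had a median log2 fold change of 0.14 over 37 tested genes, 25 higher and 12 lower, the highest median of the 26 functional lists. After the correction the median was 0.08. None was called by edgeR (13 at an unadjusted p under 0.05, a level 23.3% of all genes reached), and 2 were called by DESeq2, both higher. Mapk3, the kinase ERK1, stood at 250 to 323 CPM in the Fmn2+/+ mice and at 228 to 294 CPM in the Fmn2-/- mice, so the groups overlapped. Of 24 immediate early genes 1 was called, the AP-1 subunit Jund, which fell by 0.71 on the log2 scale (SE 0.12, edgeR adjusted p = 0.0300) with a GC content of 67.15%. Several other lists held no edgeR call. Of 33 histone acetylation and deacetylation genes DESeq2 called 1, with 9 at an unadjusted edgeR p under 0.05. Of 43 potassium channels DESeq2 called 3 (13 unadjusted), of 31 proteasome subunits 2 (10 unadjusted) and of 27 heat shock chaperones 3 (10 unadjusted). DESeq2 called 0 of 28 amyloid and tau genes (7 unadjusted) and 2 of 17 genes of the glucocorticoid response (4 unadjusted).

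The extracellular matrix list held 1 call in each direction. The metalloproteinase inhibitor Timp3 stood at 40.5, 42.8 and 38.1 CPM in the Fmn2+/+ mice and at 52.05, 60.05, 54.5, 61.4 and 56.96 CPM in the Fmn2-/- mice, without overlap. Timp3 rose by 0.50 on the log2 scale (SE 0.077, edgeR adjusted p = 0.0288). The membrane-bound metalloproteinase Adam15 fell by 0.60 (SE 0.12, edgeR adjusted p = 0.0434). The other 29 of the 31 tested members did not pass the test, and the list's median was 0.04, or -0.04 after the correction.

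Of the marker lists of neurons, each held at most 1 edgeR call. DESeq2 called 4 of 12 granule cell, 4 of 15 interneuron and 2 of 9 immature neuron markers, against 6.06% over all genes. Of 12 granule cell markers 1 was called, C1ql2, a secreted synaptic organizer of mossy fibres. It stood at 56.2, 44.9 and 68.3 CPM in the Fmn2+/+ mice and at 28.9, 38.8, 35.5, 40.5 and 37.2 CPM in the Fmn2-/- mice, and fell by 0.65 on the log2 scale (SE 0.13, edgeR adjusted p = 0.0434). Of the 12 markers 6 were lower and 6 higher, and their summed level overlapped, at 1779 to 1929 CPM and 1748 to 2032 CPM. Of 15 interneuron markers Ndnf, a marker of neurogliaform cells, rose by 0.57 on the log2 scale. Of the 15, however, 10 were lower and 5 higher, with a median log2 fold change of -0.11 (-0.03 after the correction), and the list's summed level overlapped (1439 to 1679 CPM and 1511 to 1680 CPM). Among 9 tested markers of immature neurons and progenitors Cd24a, a surface protein of young neurons, fell from 6.44 ± 1.28 CPM (SD, n = 3) to 2.61 ± 0.808 CPM (SD, n = 5; edgeR adjusted p = 0.0378). The other members mostly had values of the opposite sign, since 7 of the 9 were higher and 2 lower, with a median log2 fold change of 0.13. Dcx, the defining marker of young neurons, stood at 12.8, 17.5 and 15.4 CPM and at 17.1 to 21.0 CPM and was not called.

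The summed levels of the astrocyte markers did not overlap, at 5249 to 5541 CPM in the Fmn2+/+ and 5903 to 6596 CPM in the Fmn2-/- mice. The most abundant marker, the glutamate transporter gene Slc1a2, overlapped by itself, at 2414 to 2940 CPM and 2928 to 3363 CPM. The sums of the other markers overlapped too, at 2601 to 2919 CPM and 2871 to 3233 CPM. Levels did not overlap in 4 of the 12 markers, all higher in Fmn2-/- mice. Over all genes tested, 5.11% did not overlap and were higher. Of the 12 markers 9 were higher and 3 lower (median log2 fold change 0.10), and 1 was called, the water channel Aqp4. It stood at 158, 169 and 186 CPM in the Fmn2+/+ mice and at 237, 212, 210, 244 and 268 CPM in the Fmn2-/- mice. Aqp4 rose by 0.46 on the log2 scale (SE 0.094, edgeR adjusted p = 0.0459). Oligodendrocyte markers were lower in 10 of 12, with summed levels of 2802 to 3646 CPM and 2154 to 3068 CPM that overlapped, and none was called by edgeR (4 at an unadjusted p under 0.05) and 1 by DESeq2. Mbp, myelin basic protein, stood at 1330, 1527 and 1579 CPM in the Fmn2+/+ mice and at 1114, 1218, 1218, 854 and 940 CPM in the Fmn2-/- mice (edgeR adjusted p = 0.0628).

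Microglia markers were not called (0 of 12 by edgeR, 3 at an unadjusted p under 0.05, 1 by DESeq2), with summed levels of 354 to 414 CPM and 400 to 439 CPM. Outside the list, 2 macrophage genes were called: Adgre1, the surface protein F4/80, rose from 5.41 ± 1.11 CPM (SD, n = 3) to 9.17 ± 1.27 CPM (SD, n = 5; edgeR adjusted p = 0.0472), and Mpeg1, a pore-forming protein, from 6.75 ± 1.51 to 10.8 ± 0.940 CPM (edgeR adjusted p = 0.0489). The homeostatic marker P2ry12 stood at 56.06 to 63.96 CPM and 61.9 to 75.1 CPM. Whether the difference in Adgre1 and Mpeg1 moves with the number of these cells was not tested.

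The choroid plexus transcript Ttr separated the knockouts among themselves. It stood at 570 and 539 CPM in Fmn2-/- replicates 2 and 3, at 5.84, 69.5 and 15.0 CPM in the other 3 knockouts and at 58.2, 45.2 and 195 CPM in the Fmn2+/+ mice. The CA1 marker Wfs1 was also highest in replicates 2 and 3, at 96.8 and 91.95 CPM against 28.4 to 56.7 CPM in the other 6 mice. With both replicates summed as 1 sample edgeR called 5 genes: Fmn2, Catspere1, Catspere2, Tppp3 and Rtn4r. Endothelial, meningeal, choroid plexus, blood, CA, mossy cell, oligodendrocyte precursor and extrahippocampal markers, 75 tested genes, held no edgeR call, with 11 genes at an unadjusted p under 0.05 and 3 called by DESeq2.

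Other called genes were outside the lists and were named by size. Nnat, neuronatin, an imprinted regulator of calcium stores, stood at 249, 167 and 178 CPM in the Fmn2+/+ mice and at 130, 76.7, 73.0, 128.8 and 100.8 CPM in the Fmn2-/- mice, and fell by 0.96 on the log2 scale (SE 0.19, edgeR adjusted p = 0.0434). The groups did not overlap, and replicates 2 and 3 were the lowest knockouts. Fam183b, a ciliary gene, fell by 0.76. Upward, Rnf152, a lysosomal ubiquitin ligase, rose from 5.52 ± 0.253 CPM (SD, n = 3) to 10.03 ± 1.29 CPM (SD, n = 5; edgeR adjusted p = 0.0300). Pgr, the progesterone receptor, rose from 14.7 ± 1.96 to 21.4 ± 1.15 CPM (edgeR adjusted p = 0.0414). Ccdc73, Lgi4, Dapp1 and Zfp933 rose by 0.59 (Zfp933) to 0.78 (Dapp1) on the log2 scale. The processed pseudogene Gm18609 rose by 1.19, and Gm38020, annotated without a named product, by 1.03.

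The same genes at 3 months, in 5 Fmn2+/+ and 5 Fmn2-/- mice, mostly held no call. At that age edgeR called 5 genes (0.0301%). Of the 129 genes that fell at 8 months 91 were higher and 38 lower in young Fmn2-/- mice. Of the 14465 tested genes not called at 8 months, 7495 were higher and 6968 lower in them. The group of genes highest in GC content, which held 92 of the genes that fell, had a 3-month median log2 fold change of 0.08. A genotype effect that differed between the ages was called in 635 of 17046 genes (3.73%) by edgeR's interaction test, 510 more negative (2.99%) and 125 more positive (0.733%) at 8 months. Among the 129 genes it was called in 91, but these genes were chosen for the 8-month fall that is part of the interaction, so this number is a description. With the correction for GC content and length it was 10 of the 129 and 23 over all genes. Without Fmn2+/+ replicate 1 of 8 months the interaction was called in 8 genes and without replicate 2 in 2791. The ages are separate sets of libraries, sequenced mostly on different lanes, and age and library set cannot be told apart. At 3 months all 5 Fmn2+/+ mice were on lane 5 and 4 of the 5 Fmn2-/- mice on lane 6, so genotype and lane nearly coincide in the young mice, and the interaction model held no term for lane.

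Ndufb7 stood at 54.4 ± 2.15 CPM in Fmn2+/+ and 67.9 ± 3.42 CPM in Fmn2-/- mice at 3 months (SD, n = 5 each), a difference that did not pass the test (edgeR adjusted p = 0.0607), against 78.0 ± 13.8 and 53.2 ± 3.33 CPM at 8 months. Its genotype effects differed by -0.90 on the log2 scale (edgeR adjusted p = 0.00242), also with the correction (edgeR adjusted p = 0.00245). Rab5b at 3 months stood at 65.8 ± 1.37 CPM in Fmn2+/+ and 63.9 ± 6.42 CPM in Fmn2-/- mice (SD, n = 5 each), near the 66.7 ± 3.80 CPM of the Fmn2-/- mice of 8 months and above the 40.1 ± 6.46 CPM of the Fmn2+/+ mice of that age. Tppp3 at 3 months stood at 17.7 ± 3.95 and 20.5 ± 2.06 CPM, nearer to the old knockouts too. This was not general. Among the 129 genes that fell, the 3-month Fmn2+/+ mean was nearer to the 8-month Fmn2-/- mean than to the 8-month Fmn2+/+ mean in 60 genes (46.5%), against 54.4% of all genes; levels were normalized within each age.

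**Figure D5:**
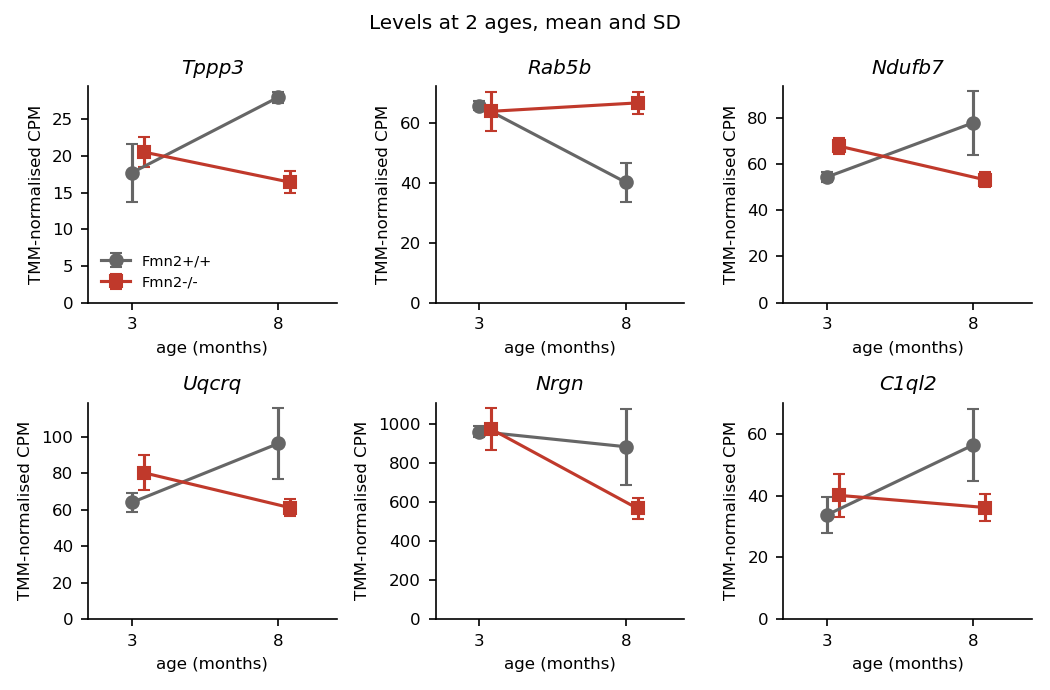
Mean and SD of TMM-normalised CPM of 6 genes at 3 months (5 mice per genotype) and 8 months (3 Fmn2+/+ and 5 Fmn2-/- mice), with circles for Fmn2+/+ and squares for Fmn2-/-. The means of Tppp3, Ndufb7, Uqcrq and C1ql2 are higher in Fmn2-/- mice at 3 months, where none of the 6 genes passed the test, and lower at 8 months, while the 3-month means of Nrgn and Rab5b are close together and lie apart at 8 months, with Nrgn lower and Rab5b higher in Fmn2-/- mice.

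The study related genes deregulated at this age to binding motifs of SP factors and of ETS factors, so the promoters of the called genes were searched for both. The search is not a repeat of the study's motif analysis, since it covers other genes, shorter windows and exact letters only. The windows ran from 250 bases before to 50 bases after each annotated start, from RefSeq with build GRCm38.p6, and 99 of the 129 genes that fell and 22 of the 37 that rose had one. The SP motif was searched as CCCGCCCC and the ETS motif as CCGGAAGC, each on both strands. The following promoters are shown because Rtn4r and Pcsk1n are the named genes with the smallest adjusted p that fell and hold an SP match, and Rpl38 and Tpgs1 the named genes that fell with an ETS match. They are printed in the direction of transcription, with the motif or its reverse complement in capitals: Rtn4r from chr16:18127392-18127691 (plus strand), Pcsk1n from chrX:7919572-7919871 (plus strand), Rpl38 from chr11:114668330-114668629 (plus strand) and Tpgs1 from chr10:79669189-79669488 (plus strand).
Rtn4r: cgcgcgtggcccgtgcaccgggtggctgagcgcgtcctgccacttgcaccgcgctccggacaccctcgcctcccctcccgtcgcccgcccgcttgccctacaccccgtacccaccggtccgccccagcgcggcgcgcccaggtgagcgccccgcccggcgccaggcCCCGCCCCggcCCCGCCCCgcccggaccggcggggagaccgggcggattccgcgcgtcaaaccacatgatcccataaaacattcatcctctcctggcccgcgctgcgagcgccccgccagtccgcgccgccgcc
Pcsk1n: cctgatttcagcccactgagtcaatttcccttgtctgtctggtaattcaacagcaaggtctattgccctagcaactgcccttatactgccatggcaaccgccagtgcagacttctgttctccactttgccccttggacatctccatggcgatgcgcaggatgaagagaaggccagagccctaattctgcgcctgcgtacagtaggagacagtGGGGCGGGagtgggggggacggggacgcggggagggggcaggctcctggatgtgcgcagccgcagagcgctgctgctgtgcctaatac
Rpl38: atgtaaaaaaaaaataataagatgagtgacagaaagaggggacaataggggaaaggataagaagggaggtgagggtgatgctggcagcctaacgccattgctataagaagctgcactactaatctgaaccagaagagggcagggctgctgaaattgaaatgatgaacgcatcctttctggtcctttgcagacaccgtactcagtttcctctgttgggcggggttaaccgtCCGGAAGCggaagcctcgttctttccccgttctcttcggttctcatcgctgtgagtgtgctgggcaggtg
Tpgs1: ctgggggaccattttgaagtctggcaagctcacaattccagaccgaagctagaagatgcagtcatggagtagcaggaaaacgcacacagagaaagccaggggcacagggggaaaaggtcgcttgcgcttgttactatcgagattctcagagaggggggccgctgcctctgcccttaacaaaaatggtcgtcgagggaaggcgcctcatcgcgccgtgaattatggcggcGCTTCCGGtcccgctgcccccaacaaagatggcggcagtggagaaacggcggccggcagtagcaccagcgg

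The SP motif was present in the promoters of 28 of the 99 genes that fell (28.3%) and of 4 of the 22 that rose (18.2%). Over the 11028 tested genes with a searched window the share was 34.7%. The ETS motif was present in 9 of the 99 genes that fell (9.09%) and in 2 of the 22 that rose (9.09%), against 6.65%. Rtn4r holds the SP motif in 2 copies on the printed strand, which begin 84 and 73 bases before the start, and Pcsk1n holds its reverse complement 38 bases before the start. The ETS motif begins 20 bases before the start in Rpl38 and its reverse complement 21 bases before the start in Tpgs1, whereas Rab5b, Myl6, Rps26 and Nrgn had neither motif in their windows. Median GC content of these windows was 60.7% for the genes that fell and for all genes, and 54.7% for those that rose. No difference between these shares was tested.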

How the data were processed

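Per the labels, RNA was isolated with TRIZOL from dentate gyrus and made into libraries with the Illumina TruSeq RNA kit v2. The authors aligned reads to mm10 with STAR (v2.3.0 in the submitters' processing notes) and counted them per gene with HTSeq. The deposited files hold these raw read counts for 48709 genes, 1 file per mouse, with no normalization. Poly(A) counts of this kind depend on RNA quality and on the base composition and length of the messages. Unstranded counting cannot separate overlapping genes, and copies of a gene can share reads.

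Groups came from the labelled genotype and age. The members, gene lists and tests were chosen with earlier results of these data known. Gene positions, exonic length and GC content came from GENCODE M21. Counts were tested with edgeR 4.0.16 (R 4.3.3) by its quasi-likelihood test, two-sided, with TMM normalization, filterByExpr and Benjamini-Hochberg adjustment over all genes tested, on the 8 mice of 8 months. A model over the mice of both ages gave the interaction of genotype and age. CPM values are given with the SD over mice. Lists are described by counts and medians, since no set test was run. DESeq2 1.42.0, the study's tool, and limma 3.58.1 (voom with sample quality weights) were alternatives, as were other normalizations, filters, each mouse left out, lane as a covariate, libraries drawn down and a correction for GC content and length, fitted as smooth curves for each mouse with mgcv 1.9.3. On simulated counts for the 8 mice (14525 genes), edgeR recovered 43 of 96 genes changed by 0.5 on the log2 scale. It recovered 43 of 50 changed by 1 and 44 of 45 changed by 1.5, with 9 calls among 14334 unchanged genes. The simulated mice differed in depth and by random variation, but not by GC content, length or lane as the real libraries did. These counts therefore do not give the share of false calls in the data.

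Named genes were Fmn2, the 12 largest changes in each direction among called genes of at least 5 CPM whose groups did not overlap, every called member of a list, called genes within 10 Mb of Fmn2, genes called also within lane 7, and up to 3 of the most abundant members of lists without a call; Prox1, Calb1, Dcx, Wfs1, Rny3 and Sccpdh are named beside these. Some genes that the rule names are not reported here. The labels give separate replicate numbers, and each library was taken as 1 mouse. A count of 0 allows up to 3 reads, which is 6.83e-06% to 4.40e-05% of a library's counts. Intervals cover counting error only. The numbers 1 to 3 occur in both genotypes but were not taken to pair the mice. The series' other 30 samples were not used here.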

Additional observations from a re-analysis of the deposited data

Results flagged for a closer look

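The genotype effect at 8 months differed from that at 3 months in 35 of the 58 called genes named here (edgeR's interaction test over the 18 mice of both ages, adjusted p from 0.00242 to 0.0471). Over all genes the share was 3.73%. Most of the 58 genes were chosen for their difference at 8 months, which is part of the interaction, so the high share follows in part from the choice and is a description. Without Fmn2+/+ replicate 1 of 8 months the interaction was called in 8 genes in all. It was more negative at 8 months in 29 genes, with differences on the log2 scale of the following sizes: Rps16 (-1.503), Pcsk1n (-1.28), H1fx (-1.12), Uqcrq (-1.01), Tppp3 (-1.001), Fxyd2 (-0.999), C1ql2 (-0.91), Rplp1 (-0.91), Tpgs1 (-0.90), Rpl38 (-0.90), Ndufb7 (-0.90), Rps26 (-0.81), Grm2 (-0.78), Ndufa13 (-0.76), Sf3b5 (-0.75), Prrt1 (-0.72), Rtn4r (-0.70), Nrgn (-0.67), Caly (-0.66), Rps25 (-0.65), Snrpa (-0.63), Myl6 (-0.62), Lrrc4b (-0.61), Ap2s1 (-0.61), Rpl41 (-0.61), Jund (-0.54), Rplp0 (-0.54), Scnm1 (-0.50), Map7d1 (-0.43). It was more positive in 6: Rnf152 (1.07), Pgr (0.84), Ccdc73 (0.79), Rab5b (0.78), Lgi4 (0.73), Zfp933 (0.70). With the correction for GC content and length 9 of these genes still passed, Fxyd2, Rab5b, Rplp1, Myl6, Uqcrq, Ndufb7, Sf3b5, Rps25 and Lgi4. The libraries of the 2 ages were sequenced mostly on different lanes, which cannot be told apart from age, and at 3 months genotype nearly coincides with lane.

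A single mouse stood apart from its group in 2 genes. Pcsk1n in Fmn2-/- replicate 1, at 38.9 CPM, was below the other 4 knockouts, which were within a narrow range, and Ndnf in Fmn2-/- replicate 5, at 63.8 CPM, was above the other 4. Chance marks about 1 in 20 groups in this way.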

How the results depend on the processing

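Fmn2 remained called under every setting run, with log2 fold changes of -1.99 to -1.77 in the fits without 1 mouse. The number of genes called at 8 months, 166, was 165 with the size factors of DESeq2, 733 with DESeq2 itself, 3777 with limma and quality weights, 1124 without a filter on low counts, 300 among genes of at least 5 CPM and 90 where the log2 fold change had to reach 0.5 in either direction. It was 10 with the correction for GC content and length, 3 with lane as a covariate, 5 with Fmn2-/- replicates 2 and 3 summed, 20 with all libraries drawn down to the smallest and 37 with Fmn2+/+ replicate 1 alone drawn down. Without 1 mouse it ranged from 4 (without Fmn2+/+ replicate 1, and without Fmn2-/- replicate 4) to 3087 (without Fmn2+/+ replicate 2); without Fmn2-/- replicates 1, 2, 3 and 5 it was 10, 8, 8 and 9. Of the 160 genes called without Fmn2+/+ replicate 3, 92 were among the 166. The cause of these shifts was not tested.

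The replicate numbers were not taken to pair the mice. Same-numbered mice correlated in their deviations at -0.07, -0.03 and -0.05, against -0.20 to 0.25 for mice of unlike numbers. With only 3 same-numbered pairs, these values cannot show whether a pairing existed. A replicate block, fitted on 3 mice per genotype, called 4 genes, or 5 with the correction for GC content and length. In it the log2 fold change of Fmn2 was -1.92. The interaction of genotype and age, 635 genes, was 568 with other size factors, 1401 with DESeq2, 399 without a filter, 23 with the correction and 227 with replicates 2 and 3 summed, and without 1 mouse ranged from 8 to 2791. Among the single genes named by the rule, the kinase gene Mapk3, which was not called, changed sign, at 0.034 with the correction. Depth limits genes of low count, since the smallest library held 6818809 reads.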

Other observations

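Called genes lay close together at 3 places on chromosome 10, each with 4 calls within 400 kb, a pattern noticed after the values were seen and not tested. All chromosomes were searched for places with at least 4 calls, so a number of at least 4 was set by the search. Over all genes tested 1.13% were called. Between Myl6 and Rab5b (mm10 chromosome 10, 128490860 to 128696264), 12 genes were tested. Myl6, Rpl41 and Rps26 fell and Rab5b rose, while the other 8, among them Pa2g4 (89.4 ± 6.99 CPM in the 3 Fmn2+/+ and 81.0 ± 1.43 CPM in the 5 Fmn2-/- mice, SD), were not called. Myl6, Rps26 and Rab5b were also called after the correction for GC content and length, whereas Rpl41 was not (edgeR adjusted p = 0.0502). The other 2 places run from 79669369 to 79874634, with Tpgs1, Polrmt, Rnf126 and Plppr3 among 11 tested genes, and from 80855275 to 81252123, with Sppl2b, Sgta, Thop1 and Zfr2 among 18 tested genes. None of the genes named at these 2 places was called after the correction.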
